A study of Homo sapiens with 6 samples.

Results

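The early response of open chromatin to FOXA1 degradation was read from 4 ATAC-seq libraries of 22Rv1, an established human prostate cancer cell line. They are the 2 libraries labelled FOXA1_dTAG at 0 h and the 2 labelled FOXA1_dTAG at 1 h, chosen by their labels from the 6 libraries of the series, whose other pair was taken at 24 h. Every group carries the dTAG label, so the 0 h libraries also come from tagged cells, and untagged 22Rv1 cells are not among the groups. No degrader, dose, promoter of the tagged gene or number of clones is given in the sources used here, nor whether replicates were separate cultures, so p-values measure only the spread between these libraries, which may be technical. Peaks on the 22 autosomes and X were joined into one region wherever they overlapped by at least 1 bp in any of the 4 lists, which gave 155336 regions (coordinates in hg19). List lengths were 118259 (0 h replicate 1), 125396 (0 h replicate 2), 110661 (1 h replicate 1) and 117942 (1 h replicate 2). Gene names, promoters and marker loci of the cell type were not analysed here, because no annotation or sequence of hg19 was used; regions are therefore given by position alone, without sequence.

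ATAC-seq uses a transposase that inserts adapters where DNA is not wrapped in nucleosomes, so clusters of insertions mark promoters, enhancers and insulators. FOXA1 is a forkhead pioneer factor: its winged-helix domain resembles a linker histone, binds its motif on nucleosomal DNA and helps to keep enhancers open. In luminal prostate cells it works beside the androgen receptor, much of whose binding lies at enhancers that FOXA1 also occupies. A dTAG fusion lets a small molecule bring the tagged protein to a ubiquitin ligase, which removes the protein fast enough to look at chromatin before secondary changes in gene expression build up. The amount of FOXA1 protein was not measured in the data used here.

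Most open regions were present at both times. Of the 155336 regions, 83706 (53.9%) had a peak in all 4 libraries. Another 19236 were seen in a single 0 h library and 16312 in a single 1 h library. Lost regions, with a peak in each 0 h library but none at 1 h, numbered 7466, which is 7.48% of the 99871 regions that the 0 h pair shared. Gained regions, with the reverse pattern, numbered 3717, which is 3.93% of the 94646 that the 1 h pair shared. Mixed patterns made up the rest, with 8699 regions missing from 1 of the 1 h libraries, 7223 missing from 1 of the 0 h libraries and 8977 held by 1 library of each time. When the 4 libraries were divided so that each side held 1 library of each time, the same count was 1925 to 2698. Both main counts exceeded the mixed ones, but with 2 libraries against 2 the exact two-sided permutation p cannot go below 0.33. It was 0.33 for lost and 0.67 for gained regions. Each count is ranked among the 6 ordered divisions, which hold both main counts, so the smaller main count cannot go below 0.67. In lists of one length the counts were 5910 lost and 4731 gained, and 7322 and 6749 where peaks had to fill at least 50% of a region.

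The imbalance was widest among prominent regions, those with a −log10 q (the peak caller's false discovery measure) of at least 10 in both libraries of a time. Of 54276 regions prominent at 0 h, 817 (1.51%) were absent from the 1 h lists, 883 (1.63%) were in a single 1 h list and 52576 (96.9%) were in both. In the other direction, 17 of the 50388 regions prominent at 1 h (0.0337%) were absent from the 0 h lists. Divisions that mixed the times gave 1 to 4 such regions (exact two-sided permutation p = 0.33 for 817 and 0.67 for 17). A peak under this limit was more frequent than a missing one. Of the 54276 regions prominent at 0 h, 3553 (6.55%) were still listed in each 1 h library but prominent in neither. Of the 50388 prominent at 1 h, 1639 were listed in each 0 h library but prominent in neither. These counts were not set against the mixed divisions, and −log10 q also carries each library's depth. The 17 became 101 when windows of 500 bp around summits were joined instead of whole peaks; the losses were then 957.

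Single pairs of libraries showed how far replicates differ at each strength. Strength was the percentile of a peak's fold over its local background within its own list, and it was divided into deciles, with decile 10 the strongest. In decile 10 no region of any library lacked a peak in its replicate (0% in all 4 lookups). From 0 h to 1 h, 0.665% to 1.47% of regions in decile 10 lacked a counterpart, and from 1 h to 0 h 0.00848% to 0.0254% did. In decile 8 the shares were 0.0362% to 0.263% between replicates, 2.71% to 3.35% from 0 h to 1 h and 0.28% to 0.646% in reverse. From decile 4 upward the 4 lookups from 0 h to 1 h lay above all 4 between replicates, and from decile 8 upward those from 1 h to 0 h lay between the other kinds. In decile 1 the kinds overlapped, with 41.9% to 50.3% between replicates and 47.5% to 57.1% from 0 h to 1 h.

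**Figure D1:**
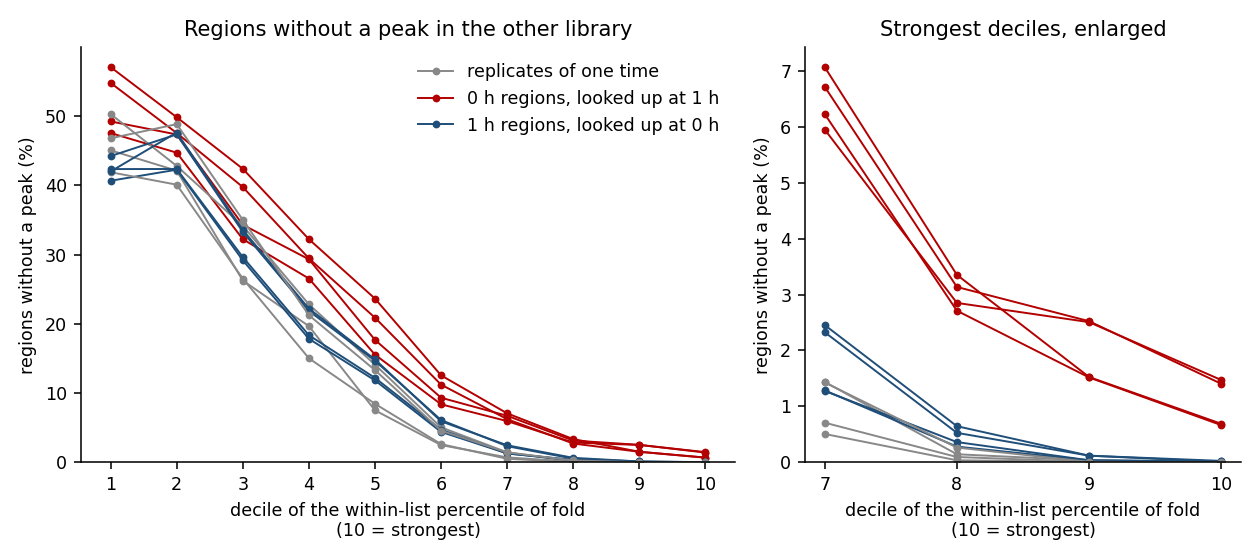
Share of a library's regions without a peak in another library (y axis, percent) by decile of within-list strength (x axis), one line per ordered pair of libraries, with deciles 7 to 10 enlarged on the right. The 4 lines from 0 h to 1 h stay above zero in decile 10 (0.665% to 1.47%), where the replicate lines are at 0%.

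By fold, the strongest lost regions lay near the top of both 0 h lists. The 6 regions named by the rule ranked lower on the other scales. Their 0 h percentiles were 71.2 to 83.7 by summit pileup and 81.7 to 91.4 by −log10 q. At 18:71374227-71374729 the within-list percentile was 99.5 in 0 h replicate 1 and 98.8 in replicate 2, with 48 and 34 tags piled up at the summit over a local background of 1.74 and 0.93 tags. The region X:91476319-91477074 stood at percentiles 99.2 and 97.7 with 57 and 38 tags. At 4:69885897-69886441 the percentiles were 97.5 in both libraries, with 42 and 32 tags. None of these had a peak of any strength in a 1 h library. No fold can be given against a list that holds no value for the region. The other 3 regions named by the rule, 13:97577991-97578559, 3:75003610-75003965 and 1:80211682-80212064, had 0 h percentiles of 96.7 to 99.2 and pileups of 32 to 58 tags.

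Around the strongest lost region the neighbouring peaks were still listed, with differences in both directions. Within 50 kb of its centre, all 4 libraries had peaks with summits 44799 to 45741 bp to the left and 45499 to 49239 bp to the right. A peak with its summit 23403 to 23505 bp to the left had percentiles of 64.8 and 72.8 in the 0 h libraries and 90.2 and 79.6 in the 1 h libraries, higher in both of the latter. The peak 49214 to 49239 bp to the right went the other way, from percentiles of 82.6 and 75.9 with 44 and 26 tags to 65.7 and 44.3 with 22 and 19 tags. A weak peak 14748 and 14765 bp to the left, at percentiles 19.6 and 28.0, was listed at 1 h alone. The central peak was the only one in this window that both 0 h libraries held and both 1 h libraries lacked. More widely, the nearest 1 h peak to a prominent lost region lay a median of 4221 bp away; 166 of the 817 (20.3%) had one within 1000 bp, 441 (54.0%) within 5000 bp and 27 (3.30%) had none within 50000 bp.

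**Figure D2:**
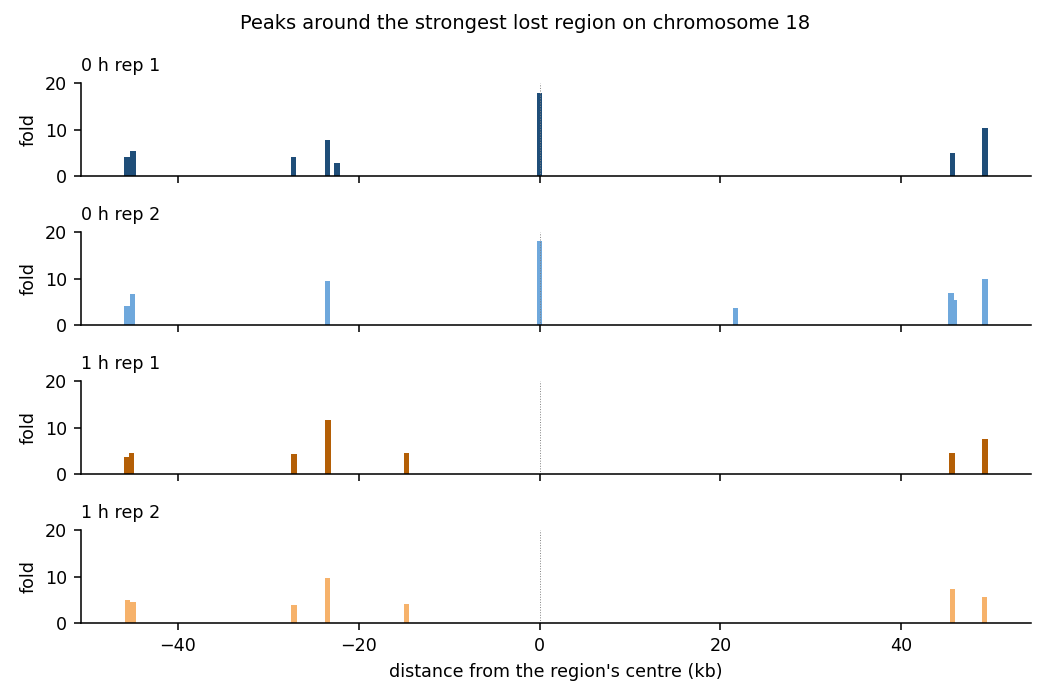
Deposited peaks within 50 kb of the centre of 18:71374227-71374729, one panel per library, with distance from the centre on the x axis (kb) and fold over local background on the y axis; narrow peaks are drawn wider than they are. The central peak, with folds of 17.9 and 18.1 at 0 h, is missing in both 1 h panels, while the flanking peaks are present, some higher and some lower at 1 h.

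Gained regions were weaker. The first, 13:88576020-88576340, had percentiles of 79.6 and 81.7 at 1 h with 22 and 23 tags at the summit. At 2:151764876-151765503 the percentiles were 76.9 and 83.9 with 21 and 24 tags. The remaining 4 named by the rule, 18:40639958-40640346, 1:199954433-199954895, 3:106019100-106019447 and 10:114317007-114317265, stood at 68.0 to 79.6 with 18 to 22 tags. The median pileup of all lost regions was 14 and 10 tags in the 0 h libraries, and that of all gained regions 10 and 11 tags in the 1 h libraries. Both kinds were narrow, with median widths of 243 and 183 bp for lost regions at 0 h and 243 and 222 bp for gained regions at 1 h.

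Among the 83706 regions with a peak in all 4 libraries, strength differed in both directions, with a longer tail downward. The difference in mean percentile, 1 h minus 0 h, had a median of 0.01 points; 1% of regions lay below −45.5 points and 1% above 33.0 points. All 1 h percentiles lay below all 0 h percentiles in 18135 regions (21.7%) and above them in 18290 (21.9%), against 8797 to 16256 in divisions that mixed the times. With a difference of at least 20 points added, 6547 regions (7.82%) ranked lower at 1 h and 4183 (5.00%) ranked higher, against 1280 to 3012 in the mixed divisions (exact two-sided permutation p = 0.33 and 0.67). These 2 sets are called lower-ranked and higher-ranked here. Ranked among the shared regions in place of the whole lists, the counts were 6593 and 5519, a smaller excess of lower over higher. The limit of 20 points was set after the data were seen, and the regions nearest to it had differences of −20.0015 and −19.9978 points below zero and 20.0024 and 19.9888 points above.

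The test across all 83706 regions depended on the measure of strength. On the percentile of fold, limma called 0 regions lower and 0 higher at an adjusted p under 0.05 (0% each; lowest adjusted p = 0.139), with 6652 lower (7.95%) and 4430 higher (5.29%) at an unadjusted p under 0.05. On the percentile of −log10 q it called 1831 lower (2.19%) and 160 higher (0.191%). After a rank-normal transformation of the percentile of fold it called 462 lower (0.552%) and 31 higher (0.0370%). The number of tags piled up at each summit was recovered from the deposited fold and p, and on its within-list percentile limma called 3177 lower (3.80%) and 579 higher (0.692%), an alternative added after the data were seen. Replicates differed less on this scale, by a median of 4.96 points at 0 h and 4.16 at 1 h, than on the percentile of fold, where they differed by 7.68 and 6.58 points. Pairs across times also differed less, by a mean of their medians of 5.77 points on pileup and 8.48 on fold. The excess over replicate pairs was 1.22 points on pileup and 1.36 on fold. The part of these spreads in the number of calls was not tested. In the 3 measures with calls, lower regions outnumbered higher ones.

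**Figure D3:**
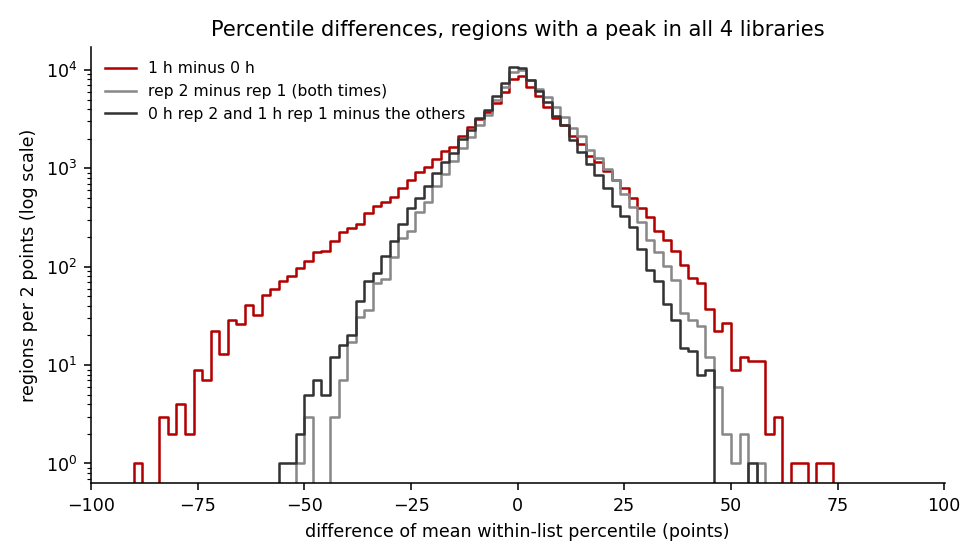
Number of regions (y axis, log scale) by difference in mean within-list percentile in steps of 2 points (x axis), for 1 h minus 0 h and for both ways of mixing the times. The line for 1 h minus 0 h reaches farther on both sides and farthest downward, where 1% of regions lie below −45.5 points.

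By fold, the largest downward differences took regions from high in the 0 h lists to the bottom of the 1 h lists. At 4:116576677-116577116 the percentiles were 99.1 and 96.9 at 0 h and 5.35 and 11.3 at 1 h, a difference of −89.7 points (SE 9.05). Its summit pileup of 45 and 36 tags became 7 and 8 tags. The region 2:162701367-162701936 stood at 99.9 and 98.9 at 0 h and 11.6 and 19.6 at 1 h, with 51 and 34 tags before and 8 and 9 after. At 10:95786865-95787473 the percentiles were 99.1 and 97.95 at 0 h and 11.6 and 19.6 at 1 h. In each of these the replicates lay close together and the times far apart, which the choice of the largest differences without overlap favoured.

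The same held with more spread for 15:82223089-82223876 (98.0 and 85.1 against 5.35 and 11.3), 12:60237123-60237788 (92.0 and 96.1 against 19.7 and 5.00) and 1:60740299-60740888 (99.6 and 99.3 against 28.0 and 11.3). The 0 h replicates differed most at 7:125124590-125125364, where percentiles of 98.0 and 68.9 stood against 1.76 and 5.00 at 1 h. The region 6:104676693-104677449 had 80.9 and 88.9 at 0 h and 2.67 and 8.05 at 1 h, although its summit still held 14 and 16 tags at 1 h, over a background of 3.87 and 3.66 tags. All 8 had an adjusted p of 0.139 in limma on the percentile of fold. On the percentile of summit pileup all 8 had a limma adjusted p from 0.000413 to 0.00333. The pileup is the numerator of the fold by which these regions were chosen, so these values are no separate support.

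The largest upward differences were smaller and began from weak peaks. At 13:54707951-54708554 the percentiles were 18.8 and 2.18 at 0 h and 88.2 and 80.3 at 1 h, a difference of 73.8 points (SE 10.7), and the pileup was 10 and 5 tags at 0 h and 28 and 23 at 1 h. At 13:61362302-61362712 they were 12.003 and 15.3 at 0 h and 90.1 and 77.8 at 1 h, with 9 and 7 tags before and 27 and 23 after. The region 4:45033105-45033590 reached 88.0 and 91.2 at 1 h from 32.5 and 15.3. The other 5, 17:57813042-57813718, 2:211583177-211583848, 15:75442289-75442754, 5:28374604-28375022 and 10:73966352-73966685, lay between 2.75 and 32.5 at 0 h and between 62.6 and 89.6 at 1 h. The adjusted p of all 8 was 0.139 to 0.142 in limma on the percentile of fold and 0.00271 to 0.0111 on the percentile of summit pileup. The pileup values are again no separate support, because the regions were chosen by fold.

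**Figure D4:**
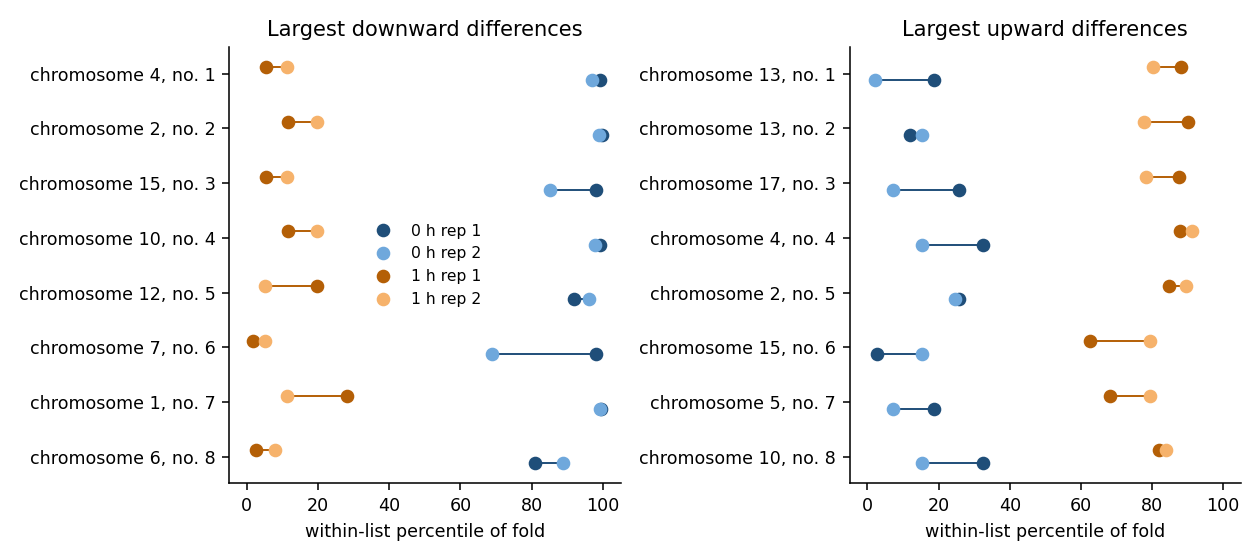
Within-list percentile of fold (x axis) in each library for the 8 regions with the largest downward (left) and upward (right) difference, one row per region in order of size, with a line joining the replicates of a time. The 0 h and 1 h points do not overlap in any row, which the choice of regions required.

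Lower- and higher-ranked regions were both narrower than regions without such a shift: lower-ranked regions had a median width of 444 and 343 bp at 0 h, higher-ranked ones 416 and 396 bp at 1 h, and the rest 507 and 404 bp (0 h) or 527 and 496 bp (1 h). By quintile of width, the broadest regions (median 1045 bp) held 1.52% lower-ranked and 0.430% higher-ranked regions, the narrowest (252.5 bp) 11.4% and 7.70%. On summit pileup the order was another: limma called 1.32% lower and 0.340% higher among the narrowest, 6.17% and 1.05% in quintile 4 and 2.97% and 0.430% among the broadest. Broad regions were also the stronger ones, with a median percentile of 79.4 against 37.7, and the shares by width were not separated from strength. The ratio of lower- to higher-ranked regions was 1.52 in decile 2 of the mean percentile, 1.303 in decile 3, 1.18 in decile 4, 2.25 in decile 8 and 4.17 in decile 9 (267 against 64 of 11626 regions). A mean percentile in decile 10 leaves no room for a shift over 20 points, and none was counted there; on summit pileup limma called 319 regions lower (3.24%) and 85 higher (0.864%). The pileup calls did not become more one-sided at the top. They were 665 lower (5.73%) and 93 higher (0.802%) in decile 8, and 495 (4.26%) and 92 (0.791%) in decile 9.

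The shares of both sets varied between chromosomes. Lower-ranked regions were 3.88% of regions on chromosome 19, 4.71% on 22 and 5.05% on 17, and 11.8% on 13, 9.50% on 21 and 9.39% on 3, beside 7.82% overall. Higher-ranked regions were 2.81% on chromosome 19, 3.61% on 22 and 3.55% on 17, and 5.53% on 13, 5.54% on 21 and 5.40% on 3, beside 5.00% overall. The sets did not always vary together: chromosome 7 had 8.79% lower-ranked and 4.79% higher-ranked regions, chromosome 14 had 8.23% and 4.88%, and chromosome 15 had 6.54% and 5.29%. On summit pileup, chromosomes 13 and 21 had 6.49% and 4.55% called lower, above the 3.80% of all regions, and 0.572% and 0.594% called higher, below 0.692%. Chromosome 3 was above all regions in both directions, with 4.89% called lower and 1.09% called higher, the highest share called higher of any chromosome. Chromosome 13 had 2.13 lower-ranked regions for each higher-ranked one and chromosome 19 had 1.38. By fold, isolated regions were in either set more often than clustered ones. With no other shared region within 50 kb, 10.98% were lower-ranked and 6.51% higher-ranked, and with more than 10 such neighbours 3.46% and 2.54%. On summit pileup limma called 4.18% lower and 0.665% higher without neighbours, and 1.75% and 0.685% with more than 10. The median percentiles of these 2 groups were 64.6 and 42.0, and the shares by neighbours were not separated from strength. These shares describe regions of the same 4 libraries, which are not independent replicates, and were not tested.

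Adjacent regions behaved differently on the fold and pileup scales. Across 4746 pairs of shared regions less than 1000 bp apart, the percentile differences of fold, 1 h minus 0 h, had a Pearson r of −0.21 (Spearman's rho −0.20), and r was −0.22 at gaps of 1000 to 2000 bp, −0.15 at 2000 to 5000 bp and 0.026 at 5000 to 20000 bp. On the percentile of summit pileup the same pairs had r of 0.17, 0.16, 0.14 and 0.052. Replicate differences gave r of −0.058 at 0 h and −0.11 at 1 h on fold under 1000 bp, and 0.034 and 0.021 on pileup. The sign at short range was thus negative on fold and positive on pileup. These are correlations across pairs that share libraries and, on the fold scale, part of the same local background, and they carry no p.

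Regions beside a prominent lost region also differed in sign between the scales; their part in the correlations above was not tested. Within 1000 bp of one, 92 regions with a peak in all 4 libraries had a median difference of 5.92 points on fold and −0.76 points on pileup. Their local background, in multiples of each library's lowest background, had a median of 2.25 at 0 h and 1.68 at 1 h and was lower at 1 h in 79 of 92 (85.9%), against 39.8% of all shared regions. Of the 92, 5 (5.43%) were lower-ranked and 12 (13.0%) higher-ranked. At 5000 to 20000 bp, 771 regions had a median difference of −1.50 points on fold and −1.03 on pileup, and 13.4% were lower-ranked and 4.67% higher-ranked. At 1000 to 5000 bp, 315 regions had a median difference of 4.20 points on fold and −0.95 on pileup, with the background lower at 1 h in 83.2%. At 5000 to 20000 bp the background was lower at 1 h in 50.2%. Within 5000 bp of lost regions, then, the median rank by fold was higher at 1 h while the median rank by pileup and the background were lower. The local background is the denominator of the fold, so its values and those of the fold are not separate results.

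**Figure D5:**
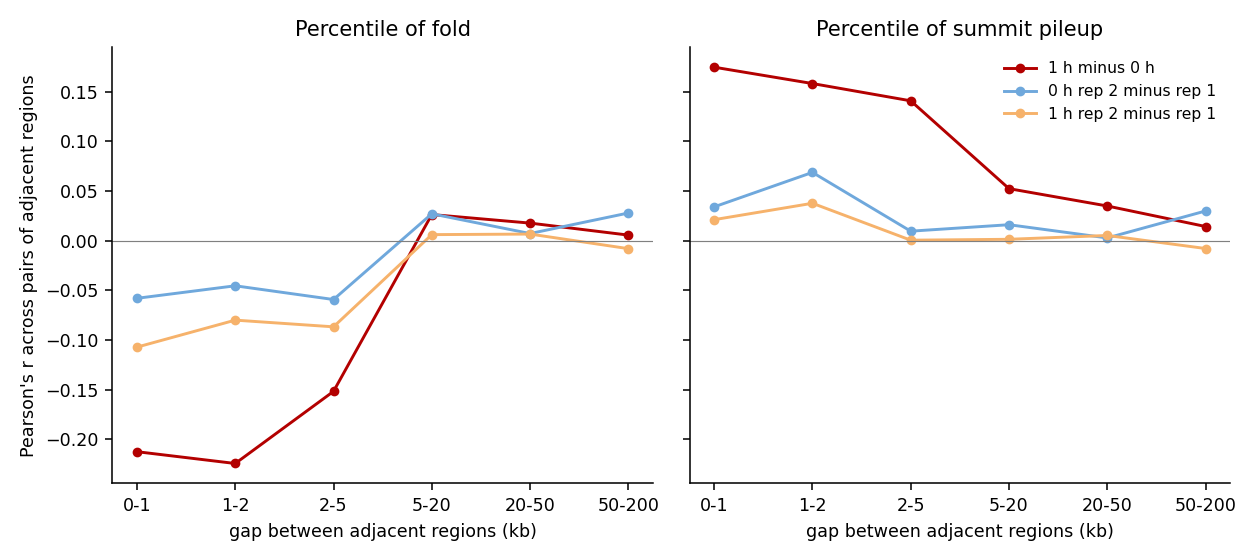
Pearson's r of the percentile difference between adjacent shared regions (y axis) by the gap between them (x axis, kb), for fold (left) and summit pileup (right). For 1 h minus 0 h, r is −0.21 on fold and 0.17 on pileup at gaps under 1 kb, and the replicate differences lie closer to zero.

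The pileup is the numerator of the fold that chose these regions, so it is no separate support for them. The same definition applied to the percentile of pileup gave 4732 lower-ranked and 2544 higher-ranked regions among the 83706 shared ones. These counts were not set against the mixed divisions. Of the 3177 regions that limma called lower on pileup, 2297 were among the 6547 lower-ranked by fold. The median summit pileup of lower-ranked regions was 27 and 21 tags at 0 h and 13 and 13 at 1 h, and that of higher-ranked ones 14 and 10 at 0 h and 19 and 20 at 1 h. Over all shared regions it was 29 and 22 tags at 0 h and 25 and 26 at 1 h. These levels also carry each library's depth, and the lowest background divided by the shortest peak was 10.4 and 8.25 tags per kb at 0 h and 8.14 and 8.62 at 1 h.

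Peak width gave no difference between the times beyond the spread of replicates. Over the shared regions the median width at 0 h was 488 and 385 bp, and at 1 h it was 502 and 471 bp, so 0 h replicate 2 stood apart from the other 3 libraries. The median log2 ratio of width, 1 h over 0 h, was 0.13, and the exact two-sided permutation p on the library medians was 0.67. Without 0 h replicate 2 the ratio was 0.0032. The shortest peak, which the peak caller ties to the estimated fragment length, measured 155 and 111 bp in the 0 h lists and 172 and 160 bp in the 1 h lists, and was shortest in the library with the narrowest peaks; the order of the other 3 libraries differed between these measures, and the part of that length in the widths was not tested. After centring each library on its median, limma called 0 regions narrower and 0 wider at an adjusted p under 0.05 (0% each; lowest adjusted p = 0.157), with 2888 (3.45%) and 3190 (3.81%) at an unadjusted p under 0.05.

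The largest width differences were named among regions whose widths did not overlap between the times, so both 1 h libraries share them by choice. Widths are those of the peak with the highest fold in the region, which can be another peak in another library. At 9:82149865-82150744 that peak was 787 and 687 bp wide before and 182 and 179 bp wide at 1 h, with percentiles of 66.0 and 68.9 before and 11.6 and 28.0 after. Its summit lay at 82150504 and 82150459 at 0 h but at 82150024 and 82149986 in the 1 h libraries, so the narrow 1 h peaks are at another place in the region. The summit also lay elsewhere at 1:238417613-238418479 (238417756 and 238417802, then 238418304 and 238418391). There the widths were 830 and 856 bp and then 239 and 160 bp. At 4:124518302-124519091 the widths were 711 and 687 bp and then 190 and 160 bp, with summits at 124518543 and 124518638 and then at 124518786 and 124519057. At 10:62869766-62871140 they were 1375 and 1056 bp and then 445 and 197 bp, with summits at 62870548 and 62870599 and then at 62870894 and 62870944. In the other direction X:84307184-84308051 had 155 and 142 bp and then 865 and 815 bp, but its 0 h summits at 84307713 and 84307371 belong to separate peaks that do not overlap. The region 7:80398145-80399103 had 272 and 111 bp and then 926 and 921 bp. The regions 11:100998084-100999637 and 11:61730427-61731844 were 196 to 408 bp wide at 0 h and 796 to 1420 bp at 1 h. In the former the 0 h summits lay at 100998221 and 100998261 and the 1 h summits at 100998232 and 100999339. The 796 bp peak of 1 h replicate 2 there did not cover the 0 h summits. None of these 8 passed limma over all regions (adjusted p = 0.157 to 0.237). Across shared regions, the centred width difference and the difference in percentile of fold had r = 0.33 (rho 0.22); lower-ranked regions had a median centred log2 width difference of −0.27 and higher-ranked ones of 0.29, against −0.040 over all.

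The excess of summit distance between times over that between replicates was small and changed sign with the libraries used. The median distance between the summits of a shared region was 43 bp between the 0 h replicates and 38 bp between the 1 h replicates, and 34, 38, 45 and 57 bp in the 4 pairs across times. The mean across times exceeded that of replicates by 3.00 bp (exact one-sided permutation p = 0.33, the smallest possible), and the excess was −2.50 bp without 1 h replicate 1, −1.0 bp without 0 h replicate 2, 13.0 bp without 0 h replicate 1 and 5.00 bp without 1 h replicate 2. In lower-ranked regions the distance was 34 bp between the 0 h replicates, 57 bp between the 1 h replicates and 49 to 64 bp across times. In higher-ranked regions it was 56 bp at 0 h, 36 bp at 1 h and 43 to 57 bp across times. In each set the summits were placed most closely at the time when the region was strong.

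Large moves that both replicate pairs shared were uncommon. Of 17724 shared regions with a percentile of at least 50 in all 4 libraries and replicate summits within 50 bp at both times, 646 (3.64%) had a mean summit move over 100 bp and 182 (1.03%) over 200 bp. The largest was in 9:468586-470903, where the summit lay at 470237 and 470245 at 0 h and at 468882 and 468838 at 1 h, a move of 1381 bp inside a region of joined peaks. The moves were 1092.5 bp in 1:186546327-186548072, 1007 bp in 1:51983518-51985170 and 1006 bp in 5:142974512-142976191. Percentiles in these 4 regions differed by −8.51 to 0.28 points between times. Summit and percentile are those of the peak with the highest fold, which can be another peak at the other time. The rank of one stretch at both times was therefore not read.

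The 24 h libraries, which no definition above used, give later levels for the same regions. Lower-ranked regions had a peak in 63.4% and 73.7% of cases in the 24 h libraries, with median percentiles of 34.7 and 37.9 where present, and 1254 of the 6547 (19.2%) had none in either. Higher-ranked regions had a peak in 92.1% and 95.1%, with median percentiles of 58.7 and 61.8. Over all shared regions these shares were 90.0% and 93.1%, and the medians 62.0 and 64.8. Of the 8 regions with the largest downward difference, 5 had no 24 h peak in either library. All 8 with the largest upward difference had a peak in both, at percentiles of 72.2 to 96.4. Each 24 h library listed all 17 prominent gained regions, and 12 of the 817 prominent lost regions were in both 24 h lists.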

How the data were processed

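ATAC-seq was measured in 22Rv1 cells, and the 2 libraries at 0 h and the 2 at 1 h were compared, with the 2 at 24 h used only for later levels. The submitters' processing notes name MACS2, Bowtie2, fastp and FastQC and the build hg19; versions, parameters, shifting of cut sites and removal of duplicates are not given in the sources used here. One list was deposited per library, without pooling. The fold (a ratio of summit pileup to local background), −log10 p and −log10 q of each peak, its positions and its summit are the authors' deposited values, and the deposited score is the −log10 q on a coarser scale, which was not used.

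Percentiles of fold were ranked within each list. Where a library had several peaks in a region, the one with the highest fold was read. The summit pileup was recovered as the whole number that gives the deposited −log10 p, assuming MACS2's formulas with a pseudocount of 1; it matched within 0.001 for 100.0% of peaks. limma 3.58.1 (R 4.3.3) with an intensity trend was fitted to the 4 libraries over all shared regions with Benjamini-Hochberg adjustment, and was run on simulated data. The simulation gave every region the same normal spread without the bounds of a percentile. It therefore cannot show how the fit behaves in these data. Counts were tested with the exact permutation test over the divisions of 4 libraries into 2 and 2. Alternatives were the q limit, list length, overlap rule, strength measure, filters, the replicate block and leaving out each library. Named regions are the 6 strongest lost and gained, the 8 largest downward and upward differences in percentile without overlap of groups, the 4 largest changes of width in each direction and the 4 largest summit moves; the rule asked for an adjusted p under 0.05 where enough regions passed, which none did. Chromosome 8 was counted but not named. The regions, limits and lists were chosen with earlier results of these data known.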

Additional observations from a re-analysis of the deposited data

How the results depend on the processing

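The excess of lost over gained regions (7466 against 3717) was smaller in lists of one length (5910 against 4731). It nearly went with a required coverage of 50% of a region (7322 against 6749). The excess was kept with −log10 q of 5 or more (6904 against 2580), in 500 bp windows (7612 against 3797) and over all chromosomes (7508 against 3739). Leaving out a library gave 11386 to 19058 lost, 7124 to 13243 gained, 1223 to 1687 prominent lost and 72 to 184 prominent gained regions; fewer libraries then had to meet the definition, and without 1 h replicate 1 gains (13243) exceeded losses (11386). Prominent losses and gains were 331 and 2 when −log10 q had to reach 15, 120 and 0 with a percentile of at least 80, 957 and 101 in 500 bp summit windows, and 873 and 42 in lists of one length. Lower- and higher-ranked regions numbered 12328 and 10393 with 10 points, 3084 and 1254 with 30 points, 4732 and 2544 on summit pileup, 6593 and 5519 ranked among shared regions, and 7469 to 10336 and 5517 to 6999 without one library.

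The percentile of fold gave 0 calls with ranks among shared regions, a filter at a mean percentile of 25 or the replicate block, and 1831 lower and 160 higher on −log10 q, 462 and 31 on the rank-normal scale and 3177 and 579 on summit pileup; the cause was not tested. Without one library it gave 0 to 192 lower and 0 higher, 192 being without 1 h replicate 2. Width gave 0 to 537 narrower and 0 to 335 wider regions without one library, all where a 1 h library was left out and the lone one was assumed to vary like the 0 h pair. The excess summit distance was −2.50 to 13 bp without one library. The correlation of replicate differences was 0.033 for percentiles and 0.059 for widths. It does not register a shift common to all regions, so it cannot show whether the replicate numbers pair the libraries. The replicate block changed no call (0 lower and 0 higher). At an unadjusted limma p under 0.05 on the percentile of fold, it gave 7122 lower and 4711 higher regions, against 6652 and 4430 without it. Depth sets which weak peaks are listed, and no list separates a region without a peak from one just under the limit.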
